A study of Mus musculus with 6 samples.

Results

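The 10 genes described here serve the uptake, storage and export of iron and the breakdown of heme: Hfe, Tfrc, Tfr2, Slc40a1, Slc11a1, Slc11a2, Fth1, Ftl1, Hmox1 and Ireb2. They were chosen by role, found by Entrez gene ID, and make up 10 of the 36528 gene IDs in the tables. RNA was sequenced from mouse bone marrow HOXB-8 cells, myeloid progenitors held in a dividing state by a homeobox transcription factor, in 2 groups of 3 libraries. The IRF2_KO group carried an Irf2 knock out made with the guide RNA listed as gRNA2, and IRF2 is a nuclear protein that binds DNA at sites shared by interferon-responsive genes. The Parental group was Irf2 wild type and carried the Luc control guide. The extraction notes also name these lines iMACs, and no label says whether a line is 1 clone or whether replicates were grown separately. The p-values therefore reflect variation among these 6 libraries and that variation may be technical.

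Cells take up most iron as transferrin bound to transferrin receptor 1, the product of Tfrc. The endosome then releases the metal, a divalent metal transporter carries it to the cytosol, ferritin stores what is not used, and ferroportin, the product of Slc40a1, exports it. Iron regulatory proteins, one of them encoded by Ireb2, bind hairpins called iron-responsive elements in several of these mRNAs when iron is low. Binding in the 5′ untranslated region blocks translation, as in ferritin, and binding in the 3′ untranslated region slows the decay of Tfrc mRNA. In macrophages much iron comes from old red cells, whose heme is opened by heme oxygenase 1, the product of Hmox1.

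The hairpin sequences are shown because iron regulatory proteins bind such elements in several of these mRNAs. The search uses 1 strict pattern, so it does not sort the genes by whether iron acts on their mRNA. GENCODE M21 transcripts of the genes (GRCm38) were searched on the transcript strand for a C, 5 bases, the loop letters CAGTGN, and 5 bases that pair with those before the loop. In all, 0.63% of 21901 protein-coding genes had such a match in an untranslated region of their longest coding transcript. Anywhere in that transcript, 1.24% had such a match, while 65.6% had the C, the 5 bases and the loop with no demand for pairing. Matches lay in 4 of the 10 genes: 4 in the 3′ untranslated region of Tfrc, and 1 each in the 5′ untranslated region of Fth1, Ftl1 and Slc40a1. The loop is in capitals.

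Tfrc, chr16:32631225-32631241, plus strand: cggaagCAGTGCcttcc
Tfrc, chr16:32631604-32631620, plus strand: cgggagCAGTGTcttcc
Tfrc, chr16:32631669-32631685, plus strand: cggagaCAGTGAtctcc
Tfrc, chr16:32631716-32631732, plus strand: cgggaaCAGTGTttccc
Fth1, chr19:9982738-9982754, plus strand: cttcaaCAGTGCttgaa
Ftl1, chr7:45459785-45459801, minus strand: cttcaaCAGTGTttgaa
Slc40a1, chr1:45925471-45925487, minus strand: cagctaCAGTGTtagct

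A match is a description of letters, and no match says only that this pattern is not in these transcripts.

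Total counts per library were 29070160 to 34051219 in IRF2_KO and 33422590 to 39925038 in Parental. Irf2 itself stood at 39.1 ± 1.89 CPM in IRF2_KO and 41.5 ± 0.787 CPM in Parental (SD, n = 3 each) and was not called (log2 fold change -0.08, adjusted p = 0.209). A guide can disrupt a reading frame and leave the transcript, so this level checks nothing about the labels. Markers of macrophages were summed at 183 to 187 CPM in IRF2_KO and at 123 CPM in each Parental library. Of these markers, 5 of 6 tested members were higher and 7 of 13 were too low to test. Each marker count here stands against 23.6% higher and 23.6% lower over all tested genes. The defining resident macrophage genes C1qa, C1qb, C1qc, Marco and Spic had at most 1 read in any library, and C1qb had none. Progenitor markers were abundant, summed at 9846 to 11286 CPM in IRF2_KO and 11947 to 12948 CPM in Parental, though Cd34 had at most 2 reads. They were lower in 5 of 8 tested members, among them Kit and Elane, higher in 1 and not called in 2. Elane stood at 924 ± 72.2 CPM in IRF2_KO and 2989 ± 98.9 CPM in Parental. Of the more abundant markers, Ctsg was higher (4195 ± 234 CPM in IRF2_KO and 3829 ± 165 CPM in Parental). Prtn3 was not called (4237 ± 393 CPM in IRF2_KO and 4007 ± 222 CPM in Parental). Of 12 erythroid markers, 10 had fewer than 10 reads in every library and 6 had none, the alpha globin genes among them. The part of these marker shifts in the results that follow was not tested. In bulk RNA, fewer cells of a type and less RNA per cell cannot be told apart.

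All 10 genes passed the filter on low counts, and 8 were called between the groups by edgeR's quasi-likelihood test at an adjusted p under 0.05. Across all 13353 tested genes 47.2% were called, so a call by itself is common here. Higher in IRF2_KO were 5 of the genes (Hmox1, Slc11a1, Slc40a1, Tfr2 and Ftl1), against 23.6% of all tested genes, and lower were 3 (Hfe, Tfrc and Slc11a2), against 23.6%. The CPM ranges of the groups did not overlap for the same 8 genes, against 54.0% of tested genes. The median absolute log2 fold change was 0.59 over the 10 genes and 0.18 over all tested genes. The genes were proposed with results of these data known, so these counts describe them and test nothing. Fth1 and Ireb2 were not called. Against a minimum change of 1.5-fold, calls were left for Hmox1, Slc40a1 and Hfe.

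**Figure D1:**
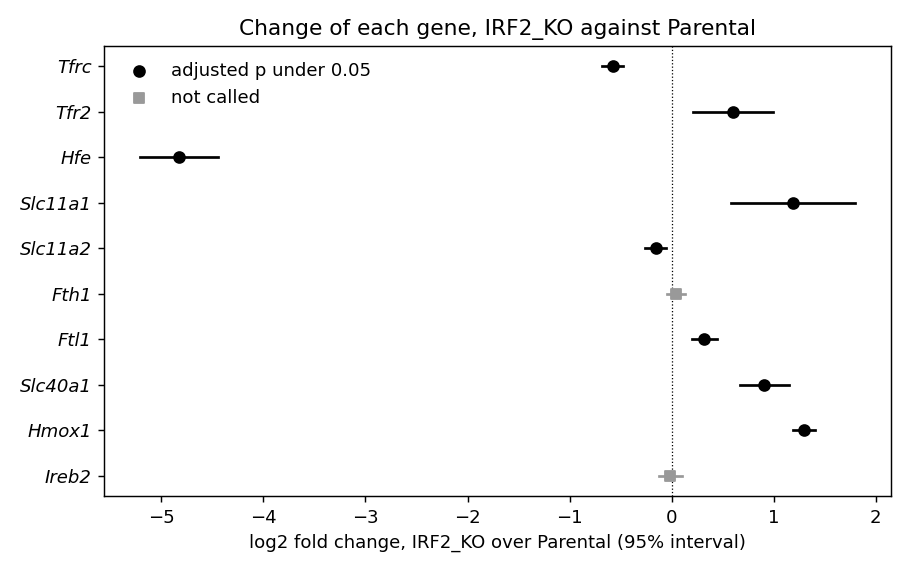
Log2 fold change of IRF2_KO over Parental for each gene, with its 95% interval from the edgeR fit (3 libraries per group). Black circles were called at an adjusted p under 0.05 and grey squares were not. Hfe lies far below the rest at -4.83, and Hmox1 and Slc11a1 lie at 1.30 and 1.19.

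The genes spanned a wide range of levels. On the authors' size-factor-adjusted RPKM scale, which is per gene length, Fth1 had the highest listed value in each group at 430 ± 21.3 RPKM in IRF2_KO and 415 ± 3.03 RPKM in Parental (SD, n = 3 each). The place of Ftl1 in the orders that follow is uncertain, since 90.6% of its 50-base windows occur in other genes and uniquely aligning reads were counted. Fth1 ranked 100 in IRF2_KO and 90 in Parental among the 13353 tested genes. In IRF2_KO the order then ran Ftl1 (158 RPKM), Hmox1 (106), Tfrc (89.4), Ireb2 (19.0), Slc11a2 (6.24), Slc40a1 (2.72), Tfr2 (0.385), Slc11a1 (0.362) and Hfe (0.0855). In Parental it ran Tfrc (133 RPKM), Ftl1 (125), Hmox1 (42.9), Ireb2 (19.0), Slc11a2 (6.92), Hfe (2.42), Slc40a1 (1.44), Tfr2 (0.252) and Slc11a1 (0.157). Neighbours in these orders had ranges over libraries that did not overlap, except Tfr2 and Slc11a1 in IRF2_KO and Tfrc and Ftl1 in Parental. Hmox1 stood above Tfrc in IRF2_KO and below it in Parental, and Hfe stood last in IRF2_KO and above Slc40a1 in Parental.

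**Figure D2:**
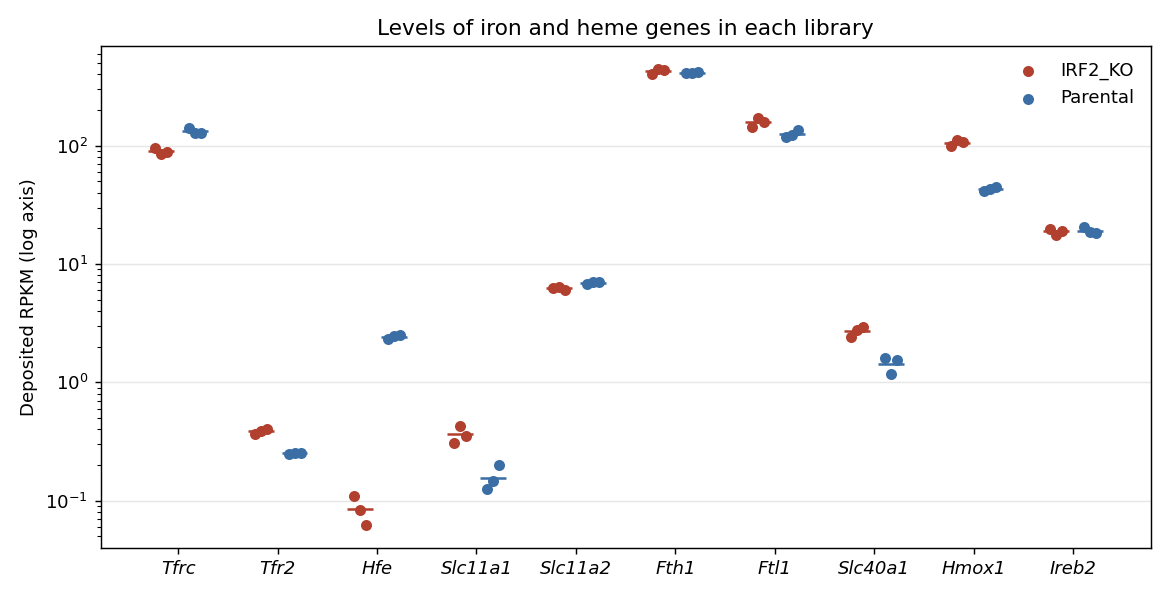
Deposited RPKM of each gene in every library, on a log axis, with IRF2_KO libraries in red, Parental libraries in blue and a bar at each group mean. Fth1 and Ireb2 overlap between groups, and Hfe lies between 0.0624 and 0.110 RPKM in IRF2_KO against 2.32 to 2.49 RPKM in Parental.

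Hfe (Entrez gene 15216, chr13:23702034-23710854) encodes a relative of MHC class I molecules that binds transferrin receptor 1 and, in liver cells, takes part in the sensing of body iron; its loss causes iron overload. It had 11, 8 and 7 reads in the IRF2_KO libraries, against 307, 278 and 337 reads in the Parental libraries. Every IRF2_KO library was far below every Parental library. In CPM it stood at 0.286 ± 0.0809 in IRF2_KO and 8.13 ± 0.334 in Parental (SD, n = 3 each). This was a 28.4-fold fall (log2 fold change -4.83, SE 0.18, 95% interval -5.21 to -4.45, adjusted p = 3.33e-13). Hfe passed the filter through the Parental libraries alone, and its fall ranked 14 of 13353 tested genes. The few reads left in IRF2_KO limit how well the size of the fall is known, and on the log2(RPKM + 1) scale it was -1.66. In its longest transcript 3.32% of 50-base windows also occur in transcripts of other genes.

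The sequence before the start of Hfe is shown because this gene changed most. These 250 bases, chr13:23710855-23711104 on the minus strand (RefSeq, GRCm38.p6), are printed with a match to TGACNNNGC, the core of an antioxidant element, in capitals.

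Hfe upstream: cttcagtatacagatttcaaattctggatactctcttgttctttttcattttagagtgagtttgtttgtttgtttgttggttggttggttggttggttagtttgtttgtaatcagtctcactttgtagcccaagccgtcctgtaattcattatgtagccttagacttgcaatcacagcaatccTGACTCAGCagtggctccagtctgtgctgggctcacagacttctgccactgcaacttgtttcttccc

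Promoter windows of 250 bases before to 50 after the start were given for 7 of the 10 genes, in 11 windows. The core of an interferon regulatory factor site (GAAA, any 2 bases, GAAA, on either strand) were in 0 of these 11 windows and in 3.44% of all 32851 windows. The letters TGACNNNGC, on either strand, were in 1 of the 11, that of Hfe, and in 12.4% of all windows. Nothing about binding of a factor follows from such matches or their lack.

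The nearest tested genes on each side of Hfe did not share its fall. H2bc4, a histone gene that ends 9.554 kb from it, was higher (log2 fold change 0.38, adjusted p = 0.000642), and H1f2, a linker histone gene 27.953 kb away on the other side, was not called (-0.09, adjusted p = 0.129). Patterns were compared by Euclidean distance between gene-centred log2 CPM over the 6 libraries, among 12576 named genes. Genes with no read in any 1 of the libraries were left out of this search. Those closest to Hfe were Col9a1 (distance 0.236), Slfn9 (0.335), Gsdmd (0.818) and Apobec3 (0.842). Col9a1, a collagen chain gene, stood at 0.230 ± 0.0646 CPM in IRF2_KO and 6.04 ± 0.504 CPM in Parental. With 2 groups, this likeness is mostly a like fold change.

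Tfrc (Entrez gene 22042, chr16:32608896-32632794), the receptor that brings transferrin-bound iron into the cell, stood at 508, 446 and 467 CPM in the IRF2_KO libraries, against 749, 688 and 687 CPM in the Parental libraries. The groups did not overlap. Tfrc fell 1.49-fold (log2 fold change -0.58, SE 0.05, adjusted p = 3.95e-08). It remained abundant in IRF2_KO at 89.4 ± 5.51 RPKM, against 133 ± 7.04 RPKM in Parental.

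Tfr2 (Entrez gene 50765, chr5:137569822-137588081) encodes transferrin receptor 2, an iron sensor of liver and erythroid cells whose coding sequence shares 59.7% of aligned bases with Tfrc. It had 46, 46 and 56 reads in IRF2_KO and 41, 36 and 43 reads in Parental. Scaled to library size and length these were 0.385 ± 0.0152 RPKM in IRF2_KO and 0.252 ± 0.00416 RPKM in Parental, with no overlap. The rise of 0.60 on the log2 scale (SE 0.19, adjusted p = 0.0128) was not called by DESeq2 (adjusted p = 0.0834), nor without IRF2_KO library 3 (adjusted p = 0.0508), and it was 0.15 on the log2(RPKM + 1) scale.

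Slc11a2 (Entrez gene 18174, chr15:100387898-100424209) encodes DMT1, the transporter that moves ferrous iron out of the endosome, and Slc11a1 (Entrez gene 18173, chr1:74375014-74386057) encodes NRAMP1, which pumps divalent metals out of the phagosome and limits bacteria there. Their coding sequences share 69.2% of aligned bases. Slc11a2 stood at 45.2, 45.4 and 43.2 CPM in IRF2_KO, against 48.3, 50.6 and 50.5 CPM in Parental. The fall was small, 1.12-fold (log2 fold change -0.16, SE 0.05, adjusted p = 0.0146). It lost its call without IRF2_KO library 3 (adjusted p = 0.0960) and without Parental library 2 or 3 (0.0573 and 0.0576).

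Slc11a1 was near the limit of detection, with 24, 32 and 31 reads in IRF2_KO and 13, 13 and 21 reads in Parental. It stood at 0.948 ± 0.156 CPM in IRF2_KO and 0.412 ± 0.0996 CPM in Parental, a 2.27-fold rise (log2 fold change 1.19, SE 0.29, adjusted p = 0.00253). The ranges did not overlap, and the rise was 0.24 on the log2(RPKM + 1) scale. NRAMP1 is known from mature macrophages and neutrophils, and macrophage markers such as Csf1r (18.0 ± 0.959 CPM in IRF2_KO and 4.62 ± 0.0535 CPM in Parental) were higher in the same libraries. Of 9 neutrophil markers, 5 were higher, 1 lower and 3 not called, against 23.6% in each direction over all tested genes. Their summed level was 334 to 338 CPM in IRF2_KO and 290 to 302 CPM in Parental. Ltf and Cxcr2 were higher (log2 fold changes 1.38 and 1.03) and Camp was lower (-0.92). The part of either marker list in this rise was not tested.

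Ferritin is a shell of heavy chains, which oxidise iron, and light chains, which help to form the mineral core. Fth1, the heavy chain gene (Entrez gene 14319, chr19:9980600-9985111), stood at 631, 688 and 675 CPM in IRF2_KO, against 642, 643 and 652 CPM in Parental. The groups overlapped and no call was made (log2 fold change 0.04, adjusted p = 0.427). The 95% interval of the difference ran from -0.05 to 0.13. Ftl1, the light chain gene (Entrez gene 14325, chr7:45457944-45459886), stood at 143, 169 and 156 CPM in IRF2_KO, against 118, 122 and 135 CPM in Parental, with no overlap. It rose (log2 fold change 0.32, SE 0.06, adjusted p = 0.000238).

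The level of Ftl1 is uncertain, and so is its rise. The shared windows of its longest transcript occur in transcripts of 17 other annotated genes, Ftl1-ps1 among them. The share of such windows was 4.01% for Fth1 and 0 for Tfrc, Tfr2, Slc40a1, Slc11a2, Hmox1 and Ireb2. Levels of the ferritin chains are therefore not comparable. Gys1, a glycogen synthase gene 1.327 kb from Ftl1, was also higher (537 ± 20.8 CPM in IRF2_KO and 384 ± 17.1 CPM in Parental, log2 fold change 0.49), and Bax, 1.809 kb away on the other side, was not called (-0.09, adjusted p = 0.238).

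Slc40a1 (Entrez gene 53945, chr1:45908070-45926532) encodes ferroportin, the iron exporter. It stood at 8.67, 9.90 and 10.6 CPM in IRF2_KO, against 5.73, 4.24 and 5.52 CPM in Parental. All IRF2_KO libraries were above all Parental libraries. The rise was 1.87-fold (log2 fold change 0.91, SE 0.11, 95% interval 0.66 to 1.15, adjusted p = 4.03e-06). Its nearest tested neighbours were the pseudogene Gm5526, 50.329 kb away, and Dnah7c, 498.896 kb away. Neither was called (log2 fold changes -0.11 and -0.25, SE 0.33 and 0.23, adjusted p = 0.803 and 0.404). Both were low, at 0.711 and 0.881 CPM in IRF2_KO and 0.751 and 1.05 CPM in Parental, so they could show little.

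Hmox1 (Entrez gene 15368, chr8:75093618-75100593) encodes the inducible enzyme that splits heme into iron, carbon monoxide and biliverdin. It stood at 160, 180 and 173 CPM in IRF2_KO, against 66.6, 70.0 and 72.2 CPM in Parental. The lowest IRF2_KO library was far above the highest Parental library. The 2.46-fold rise (log2 fold change 1.30, SE 0.05, 95% interval 1.19 to 1.41, adjusted p = 7.41e-13) had the highest estimate among the 10 genes, though the wide interval of Slc11a1 (0.58 to 1.79) includes it. Without Parental library 3, Slc11a1 was higher (log2 fold change 1.403, against 1.326 for Hmox1). It moved Hmox1 to rank 691 in IRF2_KO, against rank 2024 in Parental, among tested genes by RPKM. Of the nearest tested genes on each side, Mcm5, a replication helicase subunit, was lower (log2 fold change -0.20, adjusted p = 0.00163). Tom1 was not called (0.24, adjusted p = 0.554). Tom1 was low, at 0.573 CPM in IRF2_KO and 0.493 CPM in Parental. The genes with the closest pattern were Cd300lf (distance 0.0540), Emilin2 (0.0642), Fbxl2 (0.0670) and Gp1bb (0.0836).

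Ireb2 (Entrez gene 64602, chr9:54862658-54912534) encodes iron regulatory protein 2, whose activity is set mainly by breakdown of the protein. It stood at 146, 129 and 140 CPM in IRF2_KO, against 149, 136 and 134 CPM in Parental, and the groups overlapped. The log2 fold change of -0.01 (95% interval -0.13 to 0.10, adjusted p = 0.854) was not called. Of all tested genes, 95.5% differed by as much or more.

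Ratios of pairs with linked roles were taken within each library, so they do not depend on how libraries are scaled. They use the same counts as the fold changes and add no separate evidence. With 3 libraries against 3 the exact permutation test cannot give a two-sided p below 0.10, and 7 pairs were compared. The log2 ratio of Tfrc to Fth1 counts, uptake over storage, was -0.31, -0.63 and -0.53 in IRF2_KO, against 0.22, 0.10 and 0.08 in Parental. The groups differed by -0.62 with no overlap (exact permutation p = 0.1). The ratio of Slc40a1 to Tfrc, export over uptake, was 2.83-fold higher in IRF2_KO (exact permutation p = 0.1).

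The ratio of Hfe to Tfrc, a regulator over its receptor, was lower in IRF2_KO (log2 difference -4.29), so the fall of Hfe far exceeded that of its partner. Hmox1 over Hmox2, the inducible over the constitutive heme oxygenase, averaged 1.70 ± 0.0691 as a ratio of RPKM in IRF2_KO and 0.672 ± 0.0265 in Parental (SD, n = 3 each). Slc11a1 over Slc11a2 differed by 1.37 and Fth1 over Ftl1 by -0.28 on the log2 scale, each without overlap. The first rests on 13 to 32 Slc11a1 reads per library. The second carries the uncertainty of Ftl1, whose sequence is largely shared with other genes. For the 6 pairs other than Ireb2 over Aco1 the p was 0.1, the smallest possible. Ireb2 over Aco1, the iron regulatory proteins, overlapped between groups (difference -0.07, exact permutation p = 0.5).

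**Figure D3:**
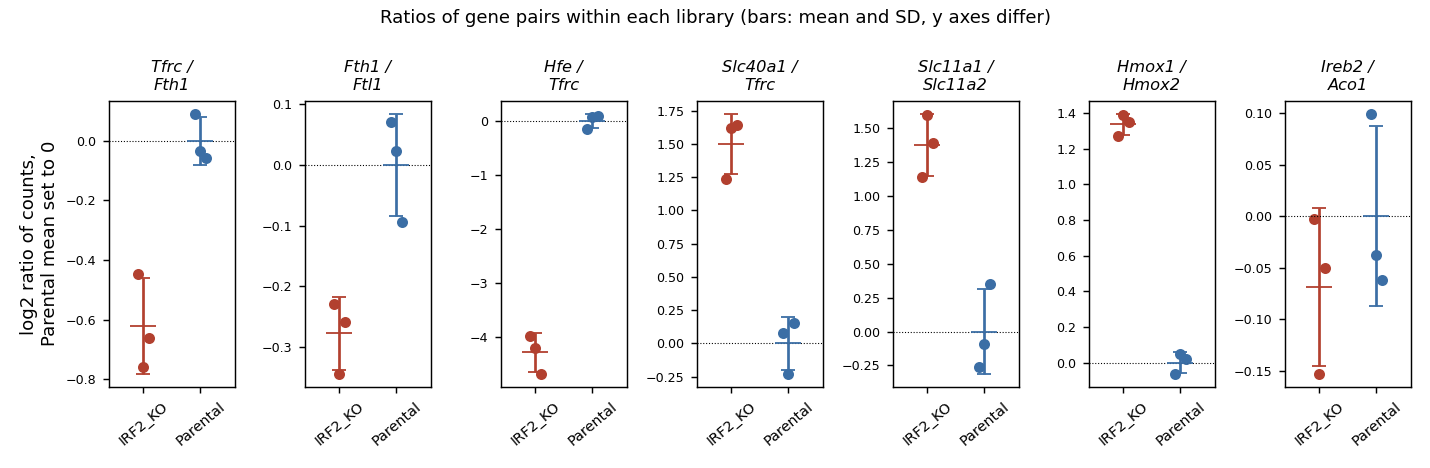
Log2 ratio of counts for 7 gene pairs in each library, with the Parental mean of each pair set to 0, IRF2_KO left and Parental right, and bars for the mean and SD of 3 libraries. The y axes differ between panels. The groups are apart in every panel except Ireb2 over Aco1. Few reads limit the panels with Hfe and Slc11a1, and shared sequence limits that with Ftl1.

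Around the 10 genes, 112 other genes of iron and heme handling in 12 lists were examined. Of these, 90 were tested, 32 were higher, 19 were lower and 39 were not called, where 23.6% of all tested genes were higher, 23.6% lower and 47.2% called in either direction. Each list count that follows stands against those shares, and the lists are small. The median log2 fold change of the related genes was 0.00, against -0.01 over all tested genes. Their median absolute change was 0.22, against 0.18 over all genes.

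Among regulators of iron sensing, Fbxl5, the ubiquitin ligase subunit that removes iron regulatory protein 2 when iron is present, rose slightly (55.4 ± 2.10 CPM in IRF2_KO and 45.9 ± 1.85 CPM in Parental, adjusted p = 0.000282). Epas1, a hypoxia-inducible factor whose mRNA is known to carry an iron-responsive element, rose 3.79-fold (log2 fold change 1.92; 6.23 ± 0.319 CPM in IRF2_KO and 1.65 ± 0.118 CPM in Parental). The other 4 of the 6 genes were not called, Aco1 and Hif1a among them (log2 fold changes 0.05 and 0.08).

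Of genes for import and reduction, 3 of 5 tested rose and 1 fell, where 47.2% of all tested genes were called, and 7 of 12 were too low to test. Steap3, the reductase that prepares endosomal iron for DMT1, fell (41.7 ± 1.13 CPM in IRF2_KO and 66.4 ± 2.71 CPM in Parental, log2 fold change -0.67, adjusted p = 5.82e-09). Cyb561a3 (log2 fold change 0.43), a reductase of late endosomes and lysosomes, rose. So did Lcn2 (0.54), a binder of bacterial siderophores, and Mcoln1 (0.32), a lysosomal cation channel. Genes of receptor traffic were mostly not called, in 5 of 6; Tbc1d24 rose by 0.25 on the log2 scale, and 2 genes were higher without IRF2_KO library 2 or Parental library 1.

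Genes that load and turn over ferritin went both ways, with 2 of 5 tested higher and 2 lower (1 without Parental library 3), where 47.2% of all tested genes were called. Ncoa4, the receptor that delivers ferritin to lysosomes, rose (21.9 ± 1.22 CPM in IRF2_KO and 16.7 ± 0.763 CPM in Parental, adjusted p = 0.000118). The iron chaperone genes parted, with Pcbp2 higher (log2 fold change 0.35) and Pcbp1 lower (-0.28). Of 5 partners of export, 2 were too low to test and the 3 tested were called higher, as were 23.6% of all tested genes. Cp, the ferroxidase ceruloplasmin, rose by 0.68, and the ubiquitin ligase genes Rnf217, which acts on ferroportin, and Nedd4l rose by 0.40 and 0.33, each on the log2 scale. Heph had no read in any library.

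In the transferrin and hepcidin axis, 7 of 12 genes were too low to test, and hepcidin, the hormone that removes ferroportin, had at most 2 reads in any library (Hamp) or none (Hamp2). Trf, transferrin itself, rose (11.9 ± 0.752 CPM in IRF2_KO and 8.06 ± 0.520 CPM in Parental), and Bmpr1a, a receptor for bone morphogenetic proteins, fell by 0.39 on the log2 scale (log2 fold change -0.39).

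Mitochondrial iron and iron-sulfur genes were lower in 6 of 16, higher in 2 and not called in 8, a share of calls near the 47.2% of all tested genes. The mitochondrial iron importers moved apart: Slc25a37, mitoferrin 1, rose (log2 fold change 0.46) and Slc25a28, mitoferrin 2, fell (-0.37). Abcb10, a partner of mitoferrin 1, and Bola2, a cytosolic iron-sulfur factor, fell (-0.33 and -0.39).

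In heme synthesis, 3 of 11 genes were higher, 2 lower and 6 not called, a share of calls near the 47.2% of all tested genes. Alas1, the rate-limiting enzyme of non-erythroid cells, was abundant and rose (1336 ± 48.8 CPM in IRF2_KO and 1120 ± 30.7 CPM in Parental, log2 fold change 0.25), while Alad, the next enzyme, fell (-0.39). Alas2, the erythroid form, had only 11, 6 and 7 reads in IRF2_KO and 13, 17 and 10 reads in Parental. It was not called (log2 fold change -0.43, SE 0.43, adjusted p = 0.432), and so few reads could show little. The count of lower genes was 1 without IRF2_KO library 3 and 4 without IRF2_KO library 2 or Parental library 1, as it was when scaled by library size alone or with no filter.

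In heme breakdown and transport, 2 of 9 tested were higher and 2 lower, a share of calls near the 47.2% of all tested genes. The higher count was 1 without IRF2_KO library 3, Parental library 2 or Parental library 3, and with scaling by library size alone. Blvrb and Blvra, the biliverdin reductases that act after heme oxygenase, rose (log2 fold changes 0.77 and 0.17, adjusted p = 1.61e-06 and 0.0204), while Hmox2 was not called (-0.04, adjusted p = 0.478). The heme exporter gene Flvcr1 and the heme and folate transporter gene Slc46a1 fell (-0.34 and -0.50). Of genes that scavenge heme and hemoglobin, Hp, haptoglobin, rose (log2 fold change 1.20; 193 ± 14.3 CPM in IRF2_KO and 83.8 ± 4.88 CPM in Parental) and Lrp1, the receptor for hemopexin, rose by 1.04 on the log2 scale. Hp and Lcn2 are also known in neutrophils, whose markers were higher in 5 of 9 and lower in 1, against 23.6% in each direction over all tested genes. The part of these markers in the rises of Hp and Lcn2 was not tested. Cd163, the haptoglobin-hemoglobin receptor, was too low to test, with no read in any IRF2_KO library and 11, 2 and 10 reads in the Parental libraries. It was called lower with no filter or by DESeq2.

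BACH1 is a heme-sensing repressor of Hmox1, and NRF2 is its activator under oxidative stress. Bach1 itself rose (74.6 ± 2.42 CPM in IRF2_KO and 52.7 ± 1.51 CPM in Parental, log2 fold change 0.50, adjusted p = 1.35e-07) and Nfe2l2, which encodes NRF2, was not called (0.03). Of known targets of NRF2, Slc7a11 and Txnrd1 fell (-0.96 and -0.36), and Gclm, Gclc, Srxn1 and Nqo1 were not called. G6pdx, which feeds the pentose phosphate pathway, rose (0.23). Any part of BACH1 or NRF2 in the rise of Hmox1 was not tested. Me1, malic enzyme, of the same list, was called higher with 79, 61 and 82 reads in IRF2_KO and 5, 2 and 5 reads in Parental. It passed the filter through the IRF2_KO libraries, and its fold rests on few Parental reads. In all, 5 of the 14 tested genes of this system were higher and 3 lower, against 23.6% in each direction over all tested genes. Among partners in the handling of divalent metals, 5 of 8 were higher and 2 lower (1 without IRF2_KO library 3), against 23.6% in each direction over all tested genes, with the metallothionein genes Mt2 and Mt1, which bind zinc and copper, higher by 0.80 and 0.55 on the log2 scale.

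**Figure D4:**
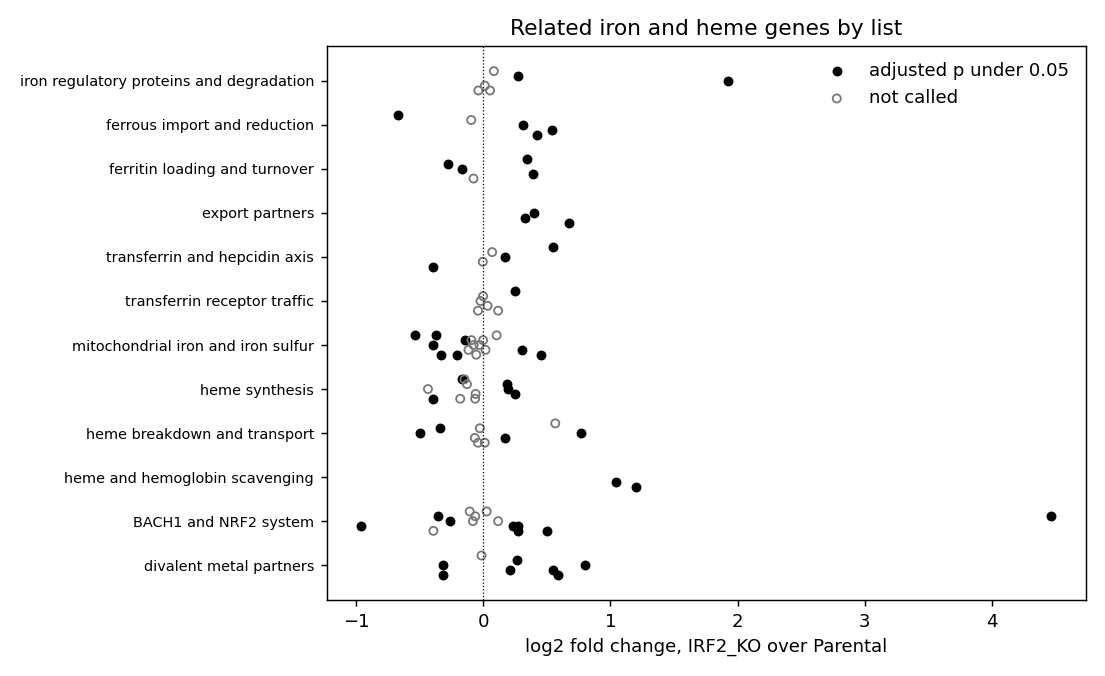
Log2 fold change of IRF2_KO over Parental for each tested gene of the 12 related lists, 1 row per list. Filled points were called at an adjusted p under 0.05 and open points were not. Me1 lies at 4.46, a fitted value that rests on 5, 2 and 5 Parental reads, the tested scavenging genes lie above 1, and most other points lie between -1 and 1.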

How the data were processed

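RNA libraries were sequenced from 6 samples, 3 per group. The submitters' processing notes name the aligner GSNAP and the build GRCm38. The deposited count values are numbers of reads uniquely aligning to each gene model, per the file headers. The deposited RPKM values are size-factor-adjusted RPKM, per the file headers, and over 11860 genes they were a rescaling of the counts. Not given in the sources used here were tool versions, annotation, strand setting and read length. The labels name both a stranded total RNA kit and polyA RNA, which was not settled.

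Counts were scaled with TMM factors, filtered by edgeR's filterByExpr and tested with edgeR's quasi-likelihood test (edgeR 4.0.16, R 4.3.3) on all genes, with Benjamini-Hochberg adjustment over all tested genes and a threshold of 0.05. The script was checked on simulated data. CPM values use the TMM-scaled library sizes. Alternatives were RLE, upper-quartile and library-size scaling, other filters, limma 3.58.1 (voom, and trend on log2 RPKM with pseudocounts of 0.1 and 1), DESeq2 1.42.0, glmTreat against 1.5-fold, a threshold of 0.01 and leaving out each library. Ratios used a two-sided exact permutation test (scipy 1.17.1). Libraries of a group differed by more than sampling noise (mean chi-square per gene 2.78 to 10.1, where noise gives 1). None was therefore treated as a second sequencing of the same library. Such values do not show that libraries were grown or prepared separately. A count of 3 was taken as the floor. Library numbers follow record order and pair nothing.

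The genes and lists were chosen with earlier results of these data known. Named were the 10 genes, up to 4 genes per list with the smallest adjusted p, the 4 closest patterns for Hfe and Hmox1, and the nearest tested gene on each side. Some genes that this rule selects are not reported here. Genes named outside this rule, such as Slc25a28, Alas2, G6pdx, the cell type markers, Nfe2l2 and its targets that were not called, and the genes without enough reads, were chosen after their values were seen. The pairing condition on the hairpins and the search for shared windows of 50 bases were also added after the files were seen. Sequence came from RefSeq and GENCODE M21, and coding identity was computed on nucleotides with Biopython 1.88.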

Additional observations from a re-analysis of the deposited data

How the results depend on the processing

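Each log2 fold change of the 10 genes was recomputed under up to 17 alternatives. Hfe, Slc40a1, Hmox1 and, uncalled throughout, Fth1 kept their direction and side of the threshold under all that were run. Against a minimum of 1.5-fold, 718 genes were higher and 301 lower over all tested genes, 2 and 1 of the 10 genes, and 5 and 1 of the related genes. Calls lost there, with the fold change unmoved, were Tfrc (-0.58), Tfr2 (0.60), Slc11a1 (1.185), Slc11a2 (-0.16) and Ftl1 (0.32), since that test asks for a larger change. With a filter of 1 CPM in 3 libraries, Slc11a1 was too low to test, and 4 of the 10 genes were called higher. At a threshold of 0.01, Tfr2 (0.60) and Slc11a2 (-0.16) were lost, and with DESeq2 Tfr2 was (0.61); the cause was not tested. With each library left out in turn, the log2 fold change ran from 0.57 to 0.64 for Tfr2, from -0.18 to -0.14 for Slc11a2 and from -0.048 to 0.035 for Ireb2, which was never called and turned positive without IRF2_KO library 2 (0.033) and without Parental library 1 (0.035). Other scalings put the median of all genes between -0.04 and 0.00. Depth limits Hfe, Tfr2 and Slc11a1 most, whose reads were fewest. No paired analysis was possible because the labels give no replicate numbers.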
